A study of Mus musculus with 4 samples.

Results

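The 6 SOX genes *Sox2*, *Sox4*, *Sox9*, *Sox11*, *Sox12* and *Sox21* were followed through embryonic and adult mouse prostate epithelium. They were taken by gene symbol from the 31053 genes of the series, and each had its own row in all 4 matrices of unique molecular identifiers (UMIs, each standing for 1 captured mRNA molecule). Single cells had been profiled by 3′ droplet RNA-seq to follow cells that express the transcription factor *Runx1* from the first prostate buds to the adult gland and its survival of castration. Adult cells came from 3 runs on ICR (CD-1) mice older than 8 weeks that all carried P2-Runx1:RFP, a reporter in which the proximal P2 promoter of *Runx1* drives red fluorescent protein (RFP), so that RFP marks P2 activity rather than all *Runx1* mRNA. EPCAM+ cells had been sorted as RFP+ or RFP- from each lobe (anterior, AP, dorsolateral, DLP, or ventral, VP) of intact mice in runs 1, 2 and 3, and of mice castrated over 4 weeks earlier in run 2 (the 17 castrated epithelial cells of run 1 came from mixed lobes and were not used). The explant library held EPCAM+ cells of the urogenital sinus, the embryonic tissue from which the prostate buds, dissected from ICR (CD-1) embryos at E15.5 and analysed at days 0, 1, 3 and 6 of culture with 10 µM dihydrotestosterone. All mice of an adult population in a run were pooled, each explant day was 1 pool, and the sorted populations and days were told apart by lipid-anchored sample barcodes. Intact DLP RFP+ cells were usable in run 3 alone and VP RFP- cells in runs 2 and 3.

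SOX proteins are transcription factors that bind and bend DNA through a high-mobility-group (HMG) box, and they are grouped by how alike their boxes are. *Sox2* and *Sox21* belong to the SOXB group: *Sox2* maintains stem and progenitor states in the early embryo and in many epithelia, and *Sox21* is a SOXB repressor that often counters it. *Sox4*, *Sox11* and *Sox12* form the SOXC group, transcriptional activators common in embryonic progenitors, and *Sox9*, of the SOXE group, directs cartilage and testis formation and is needed for the outgrowth of prostate epithelial buds.

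The group boundaries can be read from 75 bases near the start of each HMG box. They are shown here as part of the stretch that makes these genes 1 family. The sequences are the coding strand, 5′ to 3′, in the GENCODE vM21 transcripts of GRCm38, and capitals mark the 41 positions at which all 6 genes carry the same base.
Sox2: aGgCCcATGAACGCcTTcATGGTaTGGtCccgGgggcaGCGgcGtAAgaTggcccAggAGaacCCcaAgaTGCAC
Sox21: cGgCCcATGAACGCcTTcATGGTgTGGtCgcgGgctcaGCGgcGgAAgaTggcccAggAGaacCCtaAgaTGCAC
Sox4: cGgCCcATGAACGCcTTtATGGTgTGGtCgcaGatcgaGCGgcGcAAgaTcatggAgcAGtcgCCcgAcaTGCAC
Sox11: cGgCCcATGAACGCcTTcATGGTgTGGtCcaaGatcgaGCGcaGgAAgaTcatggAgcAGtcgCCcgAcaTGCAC
Sox12: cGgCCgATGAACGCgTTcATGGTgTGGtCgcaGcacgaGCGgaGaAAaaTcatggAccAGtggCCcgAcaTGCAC
Sox9: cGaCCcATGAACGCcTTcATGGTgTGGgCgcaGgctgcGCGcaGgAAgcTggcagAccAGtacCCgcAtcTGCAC
Over the whole box of 237 bases, *Sox2* and *Sox21* shared 87.8% of bases and the SOXC genes 83.5% to 89.0%, against 67.1% to 73.4% between genes of different groups.

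The likeness of the boxes did not reach the transcript ends that 3′ sequencing counts. Of the 31-base words in the last 500 bases of each transcript, none was shared between the 6 genes, and 2 of 470 in *Sox4* and 3 of 470 in *Sox9* occurred in any other gene. *Sox2* lies at chr3:34650405-34652461 on the plus strand as a single exon inside the longer noncoding gene *Sox2ot*, on the same strand. *Sox4* (chr13:28948919-28953713, minus) and *Sox21* (chr14:118233232-118237030, minus) are single exons that overlap a gene on the opposite strand, *Gm26735* and *Gm4675*. *Sox11* (chr12:27334264-27342574, minus) is a single exon, *Sox12* (chr2:152393611-152398063, minus) has transcripts of 1 or 2 exons and *Sox9* (chr11:112782224-112787760, plus) has 3 exons, all in GRCm38. RefSeq promoters, from 250 bases before to 50 after the start in GRCm38.p6, were matched for 5 of the 6 genes. The letters TGTGGT, a RUNX core, occurred on either strand in 16.8% of all 32851 promoters and in none of these 5, and ACAAAG, a SOX core, in 18.7% of all promoters and of the 5 in that of *Sox2*.

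The matrices held 35051876, 86381807 and 40087244 UMIs in adult runs 1, 2 and 3 and 121090404 in the explant library, with 4691 adult and 5198 explant cells assigned to 1 sample barcode and median depths of 9750 to 14784.5 UMIs per assigned cell. No pair of libraries shared more than 2 cell barcodes. Adult epithelial cells were divided into 2298 basal and 1707 luminal cells by the summed UMIs of 6 basal markers, with 163 cells near the cut. The keratin *Krt5* stood at 816, 747 and 809 CPM (UMI counts scaled to a common total) in intact basal cells of runs 1, 2 and 3. In intact luminal cells it stood at 2.61, 2.35 and 1.17 CPM. This describes the division by basal markers and is no separate check of it. Of the explant cells, 4007 were gated as prostatic epithelium (394, 530, 988 and 2095 at days 0, 1, 3 and 6), 728 as mesonephric, 246 as urothelial and 177 as mesenchymal. Shares of cells with a UMI were taken after each cell had been thinned to 5000 UMIs. As a background for them, *Sox4* was found in 8.82% and 4.82% of blood-lineage cells of runs 1 and 2, *Sox9* in 8.82% and 6.83%, *Sox2* in 0% and 0.402% and *Sox12* in 2.94% and 0.803%, and *Sox11* and *Sox21* in none (upper limits 10.3% of 34 cells and 1.47% of 249), at median depths of 7330 and 7255 UMIs before thinning. Counting intervals here and below are 95% exact intervals, which cover counting error only.

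In the explants, *Sox4* and *Sox11* were highest before culture, *Sox9* was lowest there and *Sox2* moved little. These are single pools with no replicate, so the day differences carry counting intervals and no test. For the SOXB gene *Sox2*, prostatic cells held 69.9 CPM (64.3 to 75.9), 65.2, 58.1 and 65.0 at days 0, 1, 3 and 6, a day 6 to day 0 ratio of 0.930 (0.847 to 1.02). A *Sox2* UMI was found in 26.6%, 26.9%, 24.5% and 23.6% of thinned cells. Level and share of *Sox2* were thus both within a narrow band over the 6 days. *Sox21* was scarce, at 8.11, 10.2, 3.69 and 3.24 CPM from 66, 98, 65 and 100 UMIs, with the lower values on the later days (day 6 to day 0 ratio 0.400, 0.290 to 0.554).

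Among the SOXC genes, *Sox4* held 679 CPM (662 to 697) at day 0 and 474, 387 and 389 at days 1, 3 and 6. Its share of thinned cells went from 93.9% to 76.6%, 77.1% and 74.7%, so that the main step of *Sox4* lay within the first day. *Sox11* stood at 240 CPM (229 to 251), 166, 151 and 113, lower at each later day, and was found in 62.7%, 50.3%, 46.9% and 39.2% of thinned cells. The weaker gene *Sox12* went from 26.1 CPM at day 0 to 17.2, 17.9 and 17.7. The day 6 to day 0 ratios were 0.573 (0.555 to 0.591) for *Sox4*, 0.472 (0.447 to 0.499) for *Sox11* and 0.679 for *Sox12*.

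*Sox9* stood at 87.4 CPM (81.1 to 94.0) at day 0 and at 168, 201 and 169 at days 1, 3 and 6, and was found in 33.0%, 48.6%, 54.6% and 49.9% of thinned cells. It was thus lowest at day 0 by both measures. Its ratio was 1.93 (1.76 to 2.11) for day 1 over day 0 and 1.94 (1.79 to 2.10) for day 6 over day 0. Of the 6 genes, *Sox11* and *Sox21* were past a 2-fold change from day 0 to day 6, both lower, where 18.2% of all 13121 genes counted were past it (10.2% lower) and the median gene stood at -0.16 on the log2 scale. Between days 1 and 3 *Sox21* alone of the 6 was past 2-fold, at 0.361 (0.260 to 0.499), against 6.93% of all genes. None was past it between days 0 and 1 or 3 and 6 (7.48% and 5.67% of all genes).

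**Figure D1:**
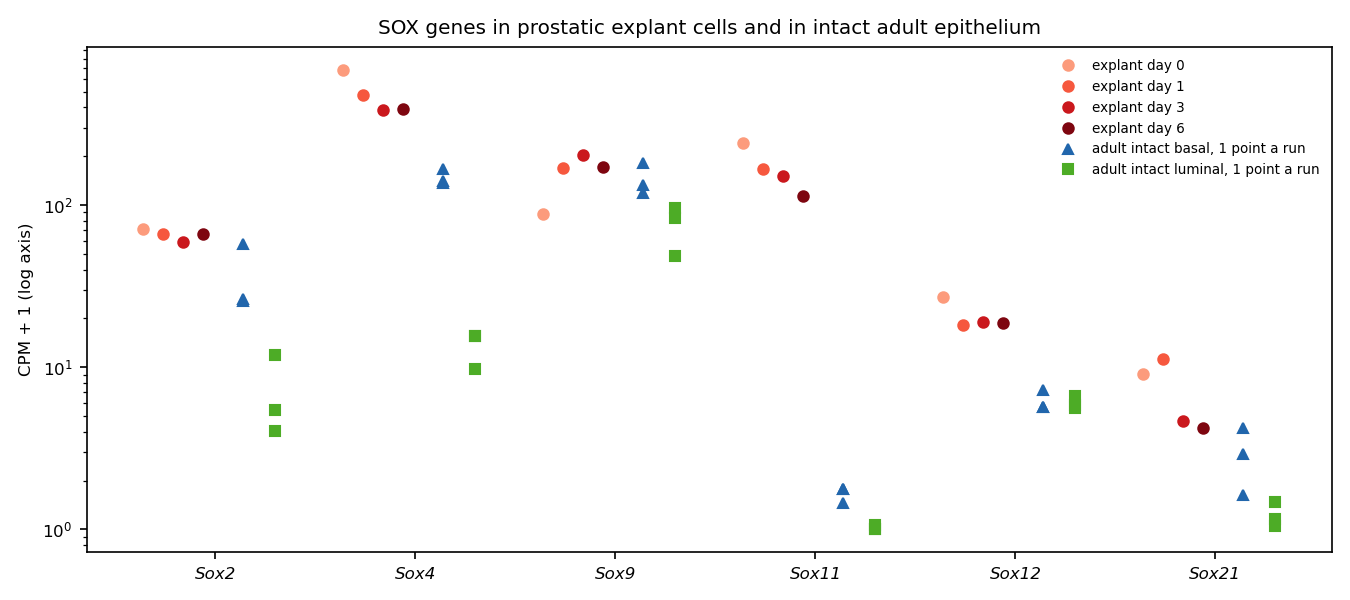
Level of each SOX gene as CPM + 1 (log axis) in prostatic explant cells at days 0, 1, 3 and 6. Intact adult basal and luminal cells of runs 1, 2 and 3 stand beside them, with 1 point per run and no intervals drawn. *Sox9* is lowest of the 4 days at day 0 (87.4 CPM), while *Sox4* and *Sox11* are highest there (679 and 240 CPM), and in adult cells *Sox11* and *Sox21* rest on few UMIs.

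Most prostatic cells held UMIs of several of the 6 genes at once. After thinning, cells with UMIs of exactly 2 of the 6 were the most common class at each day (44.9%, 37.2%, 31.2% and 37.3%), and cells with none made up 0%, 3.65%, 5.12% and 6.69% at days 0, 1, 3 and 6. At day 0, *Sox11* was found in 49.5% of the cells with a *Sox2* UMI (39.6% to 59.5%) and in 67.5% of those without (61.7% to 72.8%). The later days ran the other way, at 55.7% against 48.3%, 51.9% against 45.3% and 43.0% against 38.0% at days 1, 3 and 6, so the pair had no settled relation.

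*Vcan*, which encodes the matrix proteoglycan versican, divides the explant epithelium, and 5 of the 6 SOX genes stood higher in the cells with a *Vcan* UMI by day 6. *Vcan*-positive cells numbered 207, 250, 613 and 1471 at days 0, 1, 3 and 6 and *Vcan*-negative cells 187, 280, 375 and 624. The positive cells were deeper at every day, with median depths of 18569, 17584.5, 18298 and 14221 UMIs against 15001, 13868.5, 12747 and 11067.5, and a deeper cell is likelier to show a UMI of any gene. Both sets are cells of 1 library, so no test was possible.

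*Sox2* held 74.9, 71.5, 63.9 and 73.9 CPM in *Vcan*-positive cells and 62.2, 56.9, 44.8 and 37.6 CPM in *Vcan*-negative cells at days 0, 1, 3 and 6. The positive side was thus level while the negative side was lower at each later day. The ratios were 1.2 (1.01 to 1.44), 1.26 (1.07 to 1.48), 1.43 (1.23 to 1.65) and 1.96 (1.73 to 2.24). For the ratios after thinning, the cells were divided again by the *Vcan* UMIs they still held. *Vcan*-positive cells made up 70.2% of day 6 cells before thinning and 52.3% after, so the negative side then held cells from the positive side. The day 6 ratio of *Sox2* was then 1.43. Under the first division, 26.2% and 17.5% of thinned day 6 cells held a *Sox2* UMI. *Sox21* went the other way, at 6.24, 8.80, 3.11 and 3.04 CPM in positive and 11.0, 12.1, 5.0 and 3.87 CPM in negative cells, but its day 6 ratio of 0.787 became 1.16 after thinning and so has no settled direction.

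*Sox4* held 651, 551, 419 and 416 CPM in *Vcan*-positive and 724, 372, 313 and 305 CPM in *Vcan*-negative cells. Its ratio therefore turned from 0.900 (0.853 to 0.95) at day 0 to 1.48, 1.34 and 1.36 at days 1, 3 and 6. *Sox11* followed later, with 231, 163, 172 and 123 CPM in positive against 252, 170, 103 and 83.5 CPM in negative cells and ratios of 0.917, 0.961, 1.67 (1.52 to 1.84) and 1.47. *Sox12* held 26.6, 19.1, 20.7 and 20.1 CPM against 25.2, 14.8, 11.5 and 10.0 CPM. Its day 6 ratio was 2.01 (1.58 to 2.61), and 1.40 with thinned cells divided again by *Vcan*.

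*Sox9* was higher in *Vcan*-positive cells on all 4 days, at 95.8, 199, 216 and 184 CPM against 74.2, 128, 167 and 123 CPM, with ratios of 1.29, 1.55, 1.29 and 1.51. The lower day 0 level was present on both sides of the division. Only *Sox12* at day 6 was past 2-fold among the 6 genes and 4 days, where 3.42%, 5.34%, 11.1% and 13.1% of all genes counted were past it at days 0, 1, 3 and 6. Other cell markers moved with the division: the summed level of 5 proliferation genes was 614 CPM in positive and 326 CPM in negative cells at day 6, the urothelial list 97.0 and 491 CPM, the mesonephric list 144 and 305 CPM and the mesenchymal list 43.3 and 29.7 CPM. The part of these in the SOX differences was not tested.

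**Figure D2:**
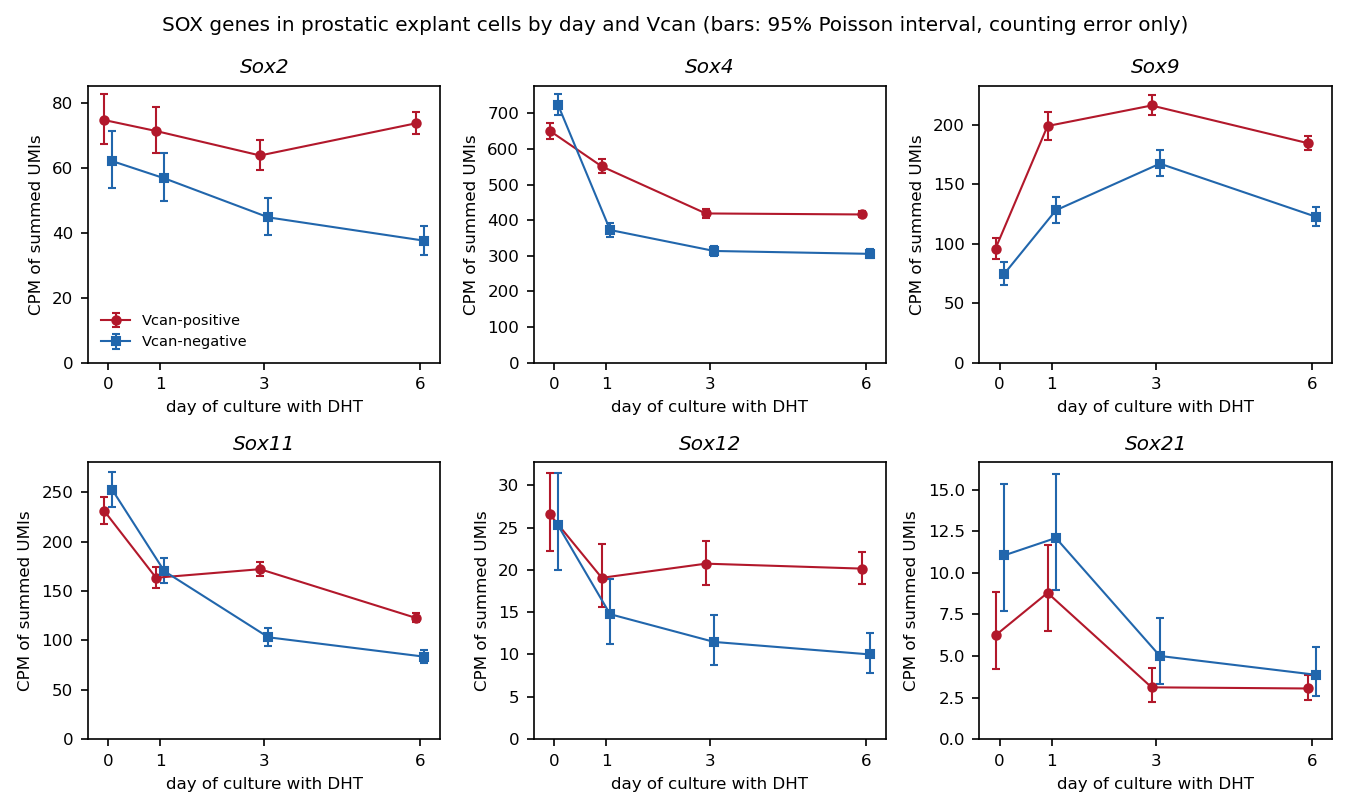
Levels of the SOX genes in CPM in prostatic explant cells with and without a *Vcan* UMI at days 0, 1, 3 and 6, with 95% counting intervals. *Sox2* in *Vcan*-negative cells goes from 62.2 to 37.6 CPM while it stays between 63.9 and 74.9 CPM in *Vcan*-positive cells, and *Sox11* and *Sox12* part at days 3 and 6.

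Smaller classes set by other markers differed in several SOX genes, of which few were past 2-fold. *Krt4* and *Psca* mark adult proximal luminal cells, and 52, 66, 139 and 121 prostatic cells at days 0, 1, 3 and 6 held at least 3 UMIs of the pair. This cut was not scaled by depth. The ratio of these cells to the other prostatic cells was 0.968, 0.749, 0.462 and 0.436 for *Sox11* and 3.42 (2.02 to 5.71), 1.55, 0.689 and 0.819 for *Sox21*. Past 2-fold were thus *Sox21* at day 0, *Sox11* at days 3 and 6 and *Sox12* at day 3 (0.492), where 9.05%, 9.96%, 14.1% and 19.1% of all genes were. Lower by less than 2-fold at day 6 were *Sox2* (0.689, 0.548 to 0.857), *Sox4* (0.583, 0.528 to 0.642), *Sox9* (0.783, 0.687 to 0.889) and *Sox12* (0.501, 0.290 to 0.810). In the 846 cells high in the basal keratins *Krt5* and *Krt14* at day 6, *Sox2* stood at 0.651 (0.588 to 0.720) of its level in the other cells and *Sox21* at 2.05 (1.36 to 3.1), against 10.4% of all genes past 2-fold. *Sox4*, *Sox9*, *Sox11* and *Sox12* stood at 0.875, 0.829, 0.869 and 0.739 in the same division. At days 0, 1 and 3 none of the 6 genes was past 2-fold by this division, where 18.3%, 10.2% and 10.7% of all genes were. Outside the prostatic gate, mesonephric cells held *Sox2* at 5.22, 15.7, 20.4 and 8.59 CPM and *Sox11* at 444, 259, 134 and 99.4 CPM at days 0, 1, 3 and 6, with *Sox2* low and *Sox11* high at day 0. Mesenchymal cells held 735, 750, 974 and 520 CPM of *Sox4*.

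In the intact adult gland, *Sox4* and, over all lobes together, *Sox2* were higher in basal cells, *Sox9* was present in both compartments and *Sox11* and *Sox21* rested on few UMIs. Levels of intact cells are given from here as CPM scaled by trimmed mean of M-values (TMM) factors, 1 value per run. *Sox2* stood at 38.1, 20.5 and 22.1 CPM in basal cells of runs 1, 2 and 3 and at 11.0, 4.27 and 6.52 CPM in luminal cells. The basal values did not overlap with the luminal ones, and the difference was 1.93 ± 0.39 (log2 ± SE, 3.8-fold) at an adjusted p of 0.0071 by edgeR's quasi-likelihood test. *Sox4* stood at 94.8, 111 and 148 CPM in basal and at 14.8, 12.1 and 21.2 CPM in luminal cells, a difference of 2.88 ± 0.27 (7.36-fold, adjusted p = 0.00035). Without run 3 the adjusted p of *Sox2* was 0.058. The luminal level of *Sox2* is a mixture, since AP RFP+ luminal cells stood at 19.7 to 27.7 CPM and each other luminal population at 0 to 7.97 CPM.

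*Sox9* stood at 122, 96.2 and 118 CPM in basal and at 95.9, 65.9 and 119 CPM in luminal cells, ranges that overlapped, and its difference of 0.26 ± 0.23 did not pass (adjusted p = 0.41). *Sox12* was the gene of the set that was higher in luminal cells, at 5.75, 6.36 and 7.13 CPM against 4.17, 3.79 and 4.23 CPM in basal cells, with a difference of -0.66 ± 0.21 (adjusted p = 0.044). That *Sox12* call was lost in 6 alternative fits, with adjusted p values of 0.27 without run 2, 0.25 without run 3, 0.0905 with DESeq2, 0.072 with the 50 most abundant genes left out of the library sizes, 0.10 without the low-count filter and 0.53 with thinned cells. These directions depend on the scaling. With total UMIs alone as the scale, the median of all genes stood at 0.70 (0.01 with TMM), *Sox12* stood at 0.04 (adjusted p = 0.92) and *Sox9* at 0.95 (adjusted p = 0.029). Of the 4 SOX genes that passed the low-count filter, 2 were higher and 1 lower in basal cells, where 39.8% of 11787 genes were called (20.6% higher, 19.2% lower). With total UMIs 46.6% were called, and the split of 2432 higher and 2259 lower became 4869 and 621.

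*Sox11* and *Sox21* did not pass the filter. *Sox11* had 3, 4 and 9 UMIs in all basal cells of runs 1, 2 and 3 and 0, 0 and 1 in all luminal cells, where the limits that a count of 0 allows (3 UMIs) were 0.461 and 0.168 CPM in runs 1 and 2. *Sox21* had 4, 10 and 37 UMIs in basal cells and 1, 1 and 7 in luminal cells. Both leaned to the basal side in each run, and of the alternative fits *Sox11* was called without the low-count filter (adjusted p = 0.031) and with DESeq2 (0.048), and *Sox21* without run 1 (0.028). On the scale of total UMIs, *Sox11* thus stood at 0.465 to 0.785 CPM in adult basal cells, beside 113 CPM in explant prostatic cells at day 6. *Sox21* stood at 0.619, 1.94 and 3.23 CPM in adult basal cells of runs 1, 2 and 3, the last at the level of the day 6 explants (3.24 CPM). Explant and adult cells are of different libraries, ages and sorts, which cannot be told apart in such a difference. After thinning, none of the 6 genes had a UMI in 17.8%, 33.4% and 27.5% of adult basal cells and in 55.2%, 72.0% and 60.0% of luminal cells of runs 1, 2 and 3.

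Within the luminal compartment of the AP, *Sox2* and *Sox9* separated RFP+ from RFP- cells and the SOXC genes did not. *Sox2* stood at 27.7, 20.7 and 19.7 CPM in RFP+ luminal cells of runs 1, 2 and 3 (22.7 ± 4.35, SD, n = 3) and at 0.583, 0 and 0 CPM in RFP- luminal cells, from 58, 22 and 29 UMIs against 1, 0 and 0. Each RFP+ value was far above each RFP- value. The pooled counts gave a ratio of 148 (25.9 to 5882), wide because the RFP- side rests on 1 UMI, and edgeR's test gave an adjusted p of 6.2e-06 (log2 difference 6.57 ± 0.85, a size that depends on the prior count). After thinning, a *Sox2* UMI was found in 20.2%, 15.9% and 12.2% of RFP+ cells and in 0 of 66, 130 and 27 RFP- cells (upper limits 5.44%, 2.80% and 12.8%), although the RFP- cells were the deeper ones before thinning (20281, 22824 and 15267.5 UMIs at the median against 12316, 10318 and 9221).

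*Sox9* stood at 186, 129 and 209 CPM in AP RFP+ luminal cells and at 30.3, 23.1 and 43.2 CPM in AP RFP- luminal cells. The groups did not overlap, and the difference was 2.50 ± 0.27 (5.67-fold, adjusted p = 5.4e-07 by edgeR). *Sox9* was found in 60.7%, 38.6% and 57.8% of thinned RFP+ cells and in 12.1%, 13.8% and 7.41% of RFP- cells, beside 8.82% and 6.83% of the blood-lineage cells of runs 1 and 2. *Sox2* and *Sox9* were called under all 12 alternative settings, at log2 differences of 5.57 to 8.24 and 2.38 to 2.92.

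The values of the SOXC genes overlapped between these groups. *Sox4* stood at 28.1, 13.2 and 42.7 CPM in RFP+ and 13.4, 15.9 and 57.6 CPM in RFP- luminal cells of the AP (difference 0.19 ± 0.48, adjusted p = 0.87), and *Sox12* at 3.81, 3.76 and 6.78 against 10.5, 5.99 and 11.5 CPM (-0.86 ± 0.48, adjusted p = 0.26). Within each run *Sox12* was lower in the RFP+ cells (3 of 3 runs), and with run as a replicate block its adjusted p was 0.18. Thus 2 of the 5 SOX genes that passed the filter of this fit were called, both higher in RFP+ cells, where 16.3% of 11146 genes were called (10.1% higher). *Sox11* passed with its highest values in VP RFP+ basal cells (3.46, 1.98 and 7.30 CPM) and *Sox21* did not pass. *Sox21* had 1, 1 and 6 UMIs in AP RFP+ luminal cells, of the 1, 1 and 7 in all luminal cells, and 0 in AP RFP- luminal cells of each run, and was called without the low-count filter (adjusted p = 0.038). With run as a replicate block the number of called genes was 2819.

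*Runx1* itself, whose promoter drives the sort, stood at 72.2, 75.7 and 105 CPM of total UMIs in AP RFP+ and at 12, 6.37 and 2.98 CPM in AP RFP- luminal cells. The AP RFP+ luminal cells also held *Krt4* at 325, 102 and 169 CPM and *Psca* at 3943, 2613 and 3866 CPM, against 13.4, 5.76 and 1.49 CPM and 95.6, 88.2 and 1.49 CPM in RFP- cells. Basal RNA moved in the same direction: the 6 basal markers together reached 208, 153 and 241 CPM in RFP+ and 60.9, 67.0 and 93.8 CPM in RFP- luminal cells, against 7991 to 8587 CPM in AP RFP+ basal cells. The part of this basal RNA in the *Sox2* and *Sox9* differences was not tested. The RFP+ luminal level of *Sox2* overlapped with that of AP RFP+ basal cells (37.7, 14.9 and 23.9 CPM).

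In the VP, neither *Sox2* nor *Sox9* separated the RFP gates. *Sox2* stood at 6.26, 3.83 and 4.48 CPM in VP RFP+ luminal cells of runs 1, 2 and 3 and at 5.49 and 1.70 CPM in RFP- cells of runs 2 and 3 (difference 0.06 ± 0.75 by edgeR). *Sox9* stood at 77.2, 79 and 120 CPM against 81.7 and 116 CPM (-0.08 ± 0.28). The values overlapped in both cases. *Sox4* was low on both sides, at 3.48, 10.5 and 4.48 against 2.44 and 0 CPM (1.92 ± 1.00, adjusted p = 0.94, from 76 and 4 UMIs), and *Sox12* differed by -0.01 ± 0.54. *Sox2*, *Sox4*, *Sox9* and *Sox12* were not called, where 0.413% of genes were called (46, or 124 with the replicate block). *Sox11* and *Sox21* had 0 UMIs in VP luminal cells of both gates and could not be called. *Runx1* also differed less there, at 10.8, 14.9 and 20.1 CPM of total UMIs in RFP+ against 5.96 and 4.08 CPM in RFP- cells.

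The RFP difference itself was compared between the lobes. It was larger in the AP than in the VP by 6.51 ± 1.35 (log2, adjusted p = 0.0080 by edgeR) for *Sox2* and by 2.58 ± 0.39 (adjusted p = 0.00034) for *Sox9*, where 1.79% of genes were called and 1.57% were larger in the AP (199 genes, or 558 with the replicate block). Without run 2, which leaves 1 VP RFP- value, the adjusted p was 0.77 for *Sox2* (difference 3.96) and 0.12 for *Sox9* (2.55). Without run 3 that of *Sox2* was 0.11, and with thinned cells 0.29. The corresponding value of *Sox4* was -1.73 ± 1.13 (adjusted p = 0.59).

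**Figure D3:**
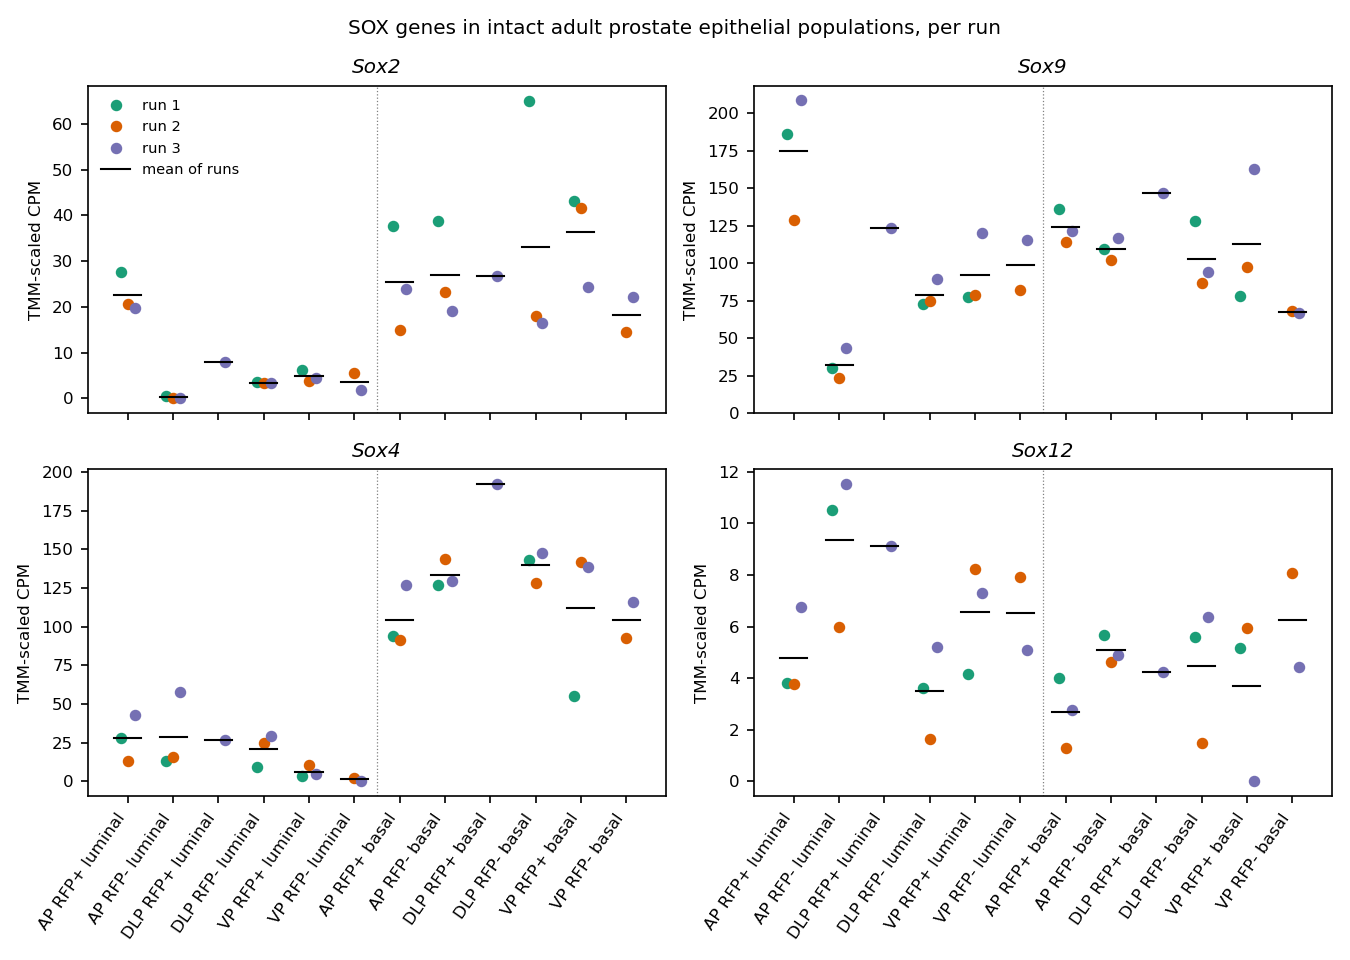
TMM-scaled CPM of *Sox2*, *Sox9*, *Sox4* and *Sox12* in each intact population (lobe, RFP gate and compartment), with 1 point per run and a bar at the mean of the runs. In the AP the RFP+ and RFP- luminal points of *Sox2* (19.7 to 27.7 against 0 to 0.583 CPM) and of *Sox9* (129 to 209 against 23.1 to 43.2 CPM) do not overlap, and in the VP they do.

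Across the lobes, RFP+ luminal cells ranked AP above VP for *Sox2*, *Sox4* and *Sox9*. The values of both sides are those given above, and the AP minus VP differences were 2.32 ± 0.46 for *Sox2* (4.99-fold, adjusted p = 0.0007), 2.06 ± 0.50 for *Sox4* (adjusted p = 0.0043) and 0.92 ± 0.25 for *Sox9* (adjusted p = 0.0095), all by edgeR, where 18.7% of genes were called and 11.1% were higher in the AP (2085 genes, or 3269 with the replicate block). *Sox12* did not pass (-0.53 ± 0.46, adjusted p = 0.49). The call of *Sox4* was lost without run 3 (adjusted p = 0.15) and with thinned cells (0.14), and that of *Sox9* without run 1 (0.082) or run 2 (0.087). With total UMIs as the scale the split of 1240 higher and 845 lower genes became 7099 and 144, with the median of all genes at 1.12 (0.05 with TMM), and the differences were 3.39 for *Sox2*, 3.16 for *Sox4* and 2.04 for *Sox9*. The DLP RFP+ luminal cells of run 3 held 7.97 CPM of *Sox2*, 124 of *Sox9*, 26.8 of *Sox4* and 9.11 of *Sox12*, without replicate.

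RFP- luminal cells gave another order. *Sox9* stood at 30.3, 23.1 and 43.2 CPM in the AP, at 72.7, 74.5 and 89.6 CPM in the DLP and at 81.7 and 116 CPM in the VP. The AP values lay below all others, by 1.66 ± 0.30 on the log2 scale against the VP (adjusted p = 0.00053) and by 1.37 ± 0.27 against the DLP (adjusted p = 0.0077 by edgeR), whereas DLP and VP neighboured each other (-0.29 ± 0.29). With total UMIs as the scale the AP to VP difference of *Sox9* was -0.60 (adjusted p = 0.15), and without run 2 the adjusted p was 0.067 against the VP and 0.36 against the DLP, and without run 3 it was 0.096 against the DLP.

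*Sox4* had the reverse order in RFP- luminal cells, at 13.4, 15.9 and 57.6 CPM in the AP, 9.09, 24.8 and 29.2 CPM in the DLP and 2.44 and 0 CPM in the VP. The VP was lowest, by 3.79 ± 0.90 against the AP (adjusted p = 0.0061) and 3.65 ± 0.92 against the DLP (adjusted p = 0.021 by edgeR), from 4 UMIs against 116 and 80, which gives pooled ratios of 22.0 (8.36 to 82.0) and 24.8 (9.32 to 93.2). These calls were lost without run 2 (adjusted p = 0.077 and 0.21), without run 3 (0.16 and 0.28) and with thinned cells (0.12 and 0.13). AP and DLP did not differ beyond their spread (-0.14 for DLP minus AP).

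*Sox2* in RFP- luminal cells was near 0 in the AP (0.583, 0 and 0 CPM) and stood at 3.64, 3.31 and 3.25 CPM in the DLP and 5.49 and 1.70 CPM in the VP. These rest on 1, 11 and 10 UMIs. Markers of neuroendocrine cells summed to 11.2, 174 and 67.1 CPM of total UMIs in the DLP cells of runs 1, 2 and 3. They summed to 9.20, 0.909 and 4.47 CPM in the AP cells and to 0 in the VP cells of runs 2 and 3. The part of such cells in the *Sox2* differences was not tested. The AP to VP difference was -4.19 ± 1.29 (adjusted p = 0.033 by edgeR), and it was lost without run 2 (0.81) or run 3 (0.12), with thinned cells (0.37), with the 50 most abundant genes left out of the library sizes (0.058) and with total UMIs as the scale (0.065). The DLP to AP difference of 3.81 ± 1.26 did not pass (adjusted p = 0.17), but did with run as a replicate block (3.95, adjusted p = 0.029), without run 1 (0.041) and without the low-count filter (0.0056). Of the genes tested, 12.2% were called between AP and VP, 5.63% higher and 6.55% lower in the AP. With total UMIs 46.8% were called there and the split of 628 higher and 730 lower became 4996 and 217, with the median of all genes at 1.03 (0.02 with TMM). Between DLP and AP 1.35% were called and 0.861% were higher in the DLP (150 genes, or 440 with the block). Between DLP and VP 4.96% were called and 2.86% were higher in the DLP (553 genes, or 1279 with the block), and with total UMIs the split of 319 and 234 became 3753 and 30, with the median at 0.94 (0.01 with TMM).

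In basal cells no SOX gene passed the test between the RFP gates of the AP or between AP and VP. Between AP RFP+ and RFP- basal cells the differences by edgeR were -0.03 ± 0.38 for *Sox2*, -0.36 ± 0.40 for *Sox4*, 0.18 ± 0.25 for *Sox9* and -0.78 ± 0.50 for *Sox12*. No gene was called in that comparison (0%), with 604 at an unadjusted p under 0.05, 1 called by DESeq2 and 62 with the replicate block. *Runx1* stood at 103, 198 and 166 against 69.6, 116 and 117 CPM of total UMIs in these basal cells. Between AP and VP RFP+ basal cells, *Sox2* stood at 37.7, 14.9 and 23.9 against 43.2, 41.7 and 24.3 CPM (-0.51 ± 0.40, adjusted p = 0.78 by edgeR). *Sox11* had the largest difference of the SOX genes tested, -2.84 ± 1.12 (adjusted p = 0.36 by edgeR), from 5 UMIs in AP and 7 in VP cells. *Sox2*, *Sox4*, *Sox9*, *Sox11* and *Sox12* were not called, where 0.942% of genes were (105, or 372 with the block). The highest *Sox4* value of the intact populations was that of DLP RFP+ basal cells, 192 CPM in 1 run.

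Castration was compared within run 2, where castrated and intact mice had each given 1 pool of cells, so that the ratios have counting intervals and no test. Levels are CPM of total UMIs. In AP RFP+ luminal cells (177 castrated, 53 intact), *Sox2* went from 18.9 CPM (22 UMIs) in intact to 0.320 CPM (1 UMI) in castrated mice, a ratio of 0.0169 (0.000409 to 0.104). *Sox4* went the other way, from 12.1 to 52.4 CPM (4.35, 2.52 to 8.13), and *Sox9* from 118 to 336 CPM (2.85, 2.39 to 3.43). After thinning, *Sox2* was found in 0 of 169 castrated cells (upper limit 2.16%) and 15.9% of the intact cells. Of all genes counted 24% were past 2-fold in this population (18.8% higher, 5.28% lower), and the median gene stood at 0.34 on the log2 scale.

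Other genes of proximal luminal cells were also lower in that castrated population. *Krt4* stood at 102 CPM in intact and 18.2 CPM in castrated AP RFP+ luminal cells and *Psca* at 2613 and 54.4 CPM, while *Runx1* stood at 75.7 and 106 CPM and the basal-marker sum at 153 and 188 CPM. Whether the same cells changed or other cells were sampled cannot be told apart with 1 pool a side.

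*Sox9* was higher after castration in each of the 4 luminal populations compared, and *Sox4* in the 2 of the AP. AP RFP- luminal cells (46 castrated, 139 intact) held *Sox9* at 106 against 23.3 CPM (4.53, 3.33 to 6.19) and *Sox4* at 35.3 against 16.1 CPM (2.20, 1.38 to 3.45), and *Sox2* had 1 against 0 UMIs. Past 2-fold there were 21.3% of genes (6.04% higher), and the median gene stood at -0.22. In DLP RFP- luminal cells (24 and 58) *Sox9* stood at 99.6 against 65.1 CPM (1.53, 1.06 to 2.18), and the interval of *Sox4* included 1 (1.80, 0.968 to 3.27), where 17.7% of genes were past 2-fold.

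VP RFP+ luminal cells (123 castrated, 190 intact) were the population in which *Sox2* was higher after castration, at 11.0 against 2.17 CPM (26 and 20 UMIs, ratio 5.08, 2.73 to 9.60), with *Sox9* at 149 against 44.8 CPM (3.32, 2.87 to 3.84). Here 45.7% of all genes were past 2-fold (42.1% of all genes upward), and the median gene stood at 0.88. With the 50 most abundant genes left out of the totals the ratios were 2.45 for *Sox2* and 1.60 for *Sox9*, and with thinned cells that of *Sox2* was 9.64. *Sox4* stood at 1.56 (0.908 to 2.61), but at 0.670 with thinned cells, so its direction is not settled. *Sox12* stood at 1.00 (0.465 to 1.97), and at 0.483 with the 50 most abundant genes left out. Markers of neuroendocrine cells summed to 47.6 CPM in the castrated and 0.217 CPM in the intact VP RFP+ luminal cells. The part of such cells in the *Sox2* ratio was not tested.

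The basal ratios lay nearer to 1. In AP RFP+ basal cells (163 castrated, 157 intact) the castrated to intact ratio was 1.41 (0.876 to 2.29) for *Sox2*, 1.46 (1.21 to 1.76) for *Sox4* and 1.44 (1.22 to 1.70) for *Sox9*. In VP RFP+ basal cells (77 and 77) *Sox4* stood lower, at 0.615 (0.430 to 0.866), with *Sox2* at 0.885 and *Sox9* at 0.778. None of these was past 2-fold, where 14.3% and 17.9% of genes were. DLP RFP+ luminal cells of castrated mice (134 cells of run 2) held 266 CPM of *Sox4*, 431 of *Sox9* and 12 of *Sox2*, beside 16.2, 74.6 and 4.82 CPM in the intact cells of run 3, which are from another run and are not compared.

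**Figure D4:**
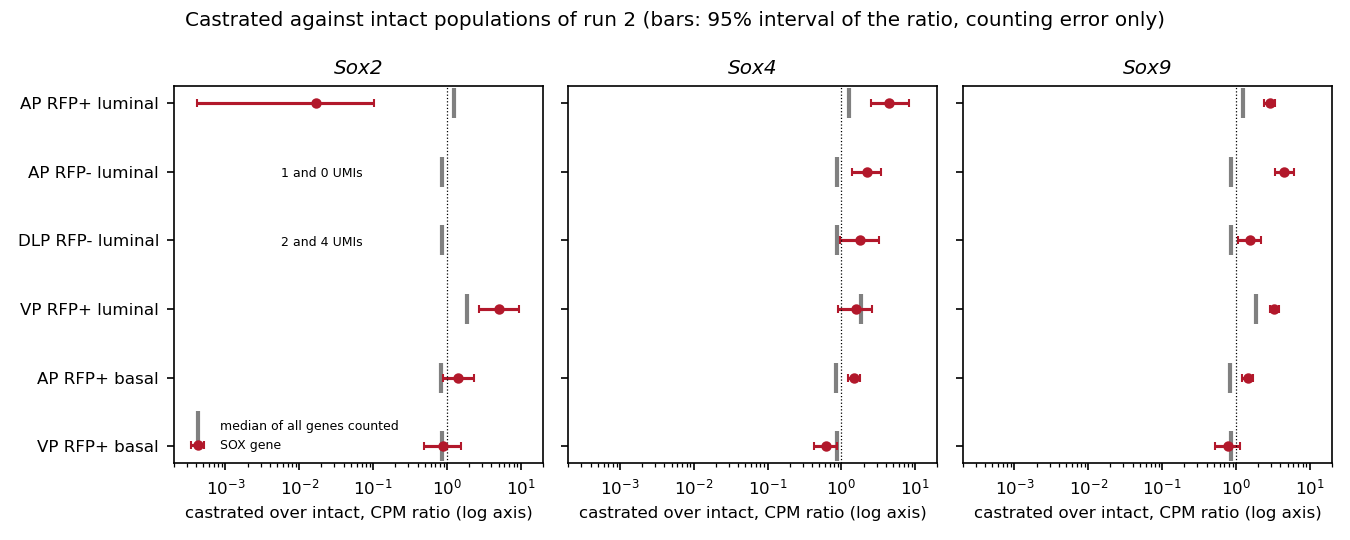
Castrated over intact ratio of CPM (log axis) of *Sox2*, *Sox4* and *Sox9* in 6 populations of run 2, with 95% counting intervals and the median ratio of all genes as a grey mark. *Sox2* lies at 0.0169 in AP RFP+ luminal cells and at 5.08 in VP RFP+ luminal cells, and *Sox9* lies above 1 in all 4 luminal populations.

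The other genes around the 6 were described by lists. Of the 14 further genes of the mouse Sox family, 3 were tested between intact basal and luminal cells, and *Sox6* (5.72 ± 0.43, adjusted p = 0.00016 by edgeR) and *Sox15* (3.94 ± 0.70, adjusted p = 0.0040) were higher in basal cells, where 39.8% of all genes were called. Between AP RFP+ and RFP- luminal cells, *Sox13* (3.14 ± 0.67, adjusted p = 0.0018) and *Sox5* (2.72 ± 0.91, adjusted p = 0.046) of 4 tested were higher in RFP+ cells, where 16.3% of all genes were called. In the explants, *Sox15* was 2.68-fold higher at day 6 than at day 0, *Sox17* stood at 0.0634 and *Sox5* at 0.283 of their day 0 level, of 5 genes counted, where 18.2% of all genes were past 2-fold. The paper uses *Sox17* as a marker of mesonephric derivatives. From day 0 to day 6 the mesonephric list went from 489 to 144 CPM in *Vcan*-positive and from 645 to 305 CPM in *Vcan*-negative prostatic cells. The part of this in the *Sox17* ratio was not tested.

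Of 20 regulators of prostate development, 10 were higher in intact basal cells, among them *Notch1*, *Shh*, *Fgfr2*, *Trp63* and *Runx1*, and 3 in luminal cells, among them *Sfrp1*, of 19 tested, with a median difference of 0.89 against 0.01 over all genes, of which 20.6% were higher and 19.2% lower in basal cells. The paper uses *Trp63* as a basal marker, and the compartments were divided by basal markers, so its call says little beyond the gate. Between AP RFP+ and RFP- luminal cells, 9 of 18 were higher in RFP+ cells, among them *Shh*, *Notch1* and *Fgfr2*, and 3 were lower, among them *Gata3* and *Bmp7*, against 10.1% and 6.16% of all genes. The 9 include *Runx1*, whose P2 promoter drives the RFP of this sort, so its call is no separate result. The difference of the RFP effect between the lobes, in which *Sox2* and *Sox9* were called, was called for 1 of the 18, the growth factor receptor *Fgfr2*. From day 0 to day 6 of culture, *Bmp7*, *Notch1* and *Tgfbr2* were past 2-fold higher and *Bmp4*, *Foxa1*, *Foxa2* and *Shh* past 2-fold lower, where 18.2% of all genes were past 2-fold.

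Across the 30 sums of intact cells by run, lobe, RFP gate and compartment, the genes with the pattern most like that of *Sox2* were *Eno1* (Spearman's rho 0.933), *Papss1* (0.930) and *Rin2* (0.923). For *Sox4* they were *Dnajb1* (0.932), *Oat* (0.930) and *Nedd4* (0.927), and for *Sox9* *Fxyd3* (0.938), *Anxa3* (0.933) and *Tmem50a* (0.906). The sums share libraries and differ in depth, so these are descriptions.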

How the data were processed

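The authors aligned 10x Genomics 3′ libraries to mm10 (GRCm38) with Cell Ranger 3.1.0, used Seurat 3.1.5 per the labels, and deposited raw UMI counts per gene and cell. Cells were assigned to sample barcodes by the study's thresholds, adult cells with 750 to 7500 genes and up to 10% mitochondrial UMIs and explant cells with at least 1000 genes and up to 7.5% were kept (the study words the limit of 7500 as UMIs, and it was applied here to detected genes), and no doublets were removed beyond barcode doublets. Adult epithelial cells (at least 5 of 10 markers) were called basal at 10 or more basal-marker UMIs per 10000. The 6 genes, lists and gates were chosen with earlier results of these data known. Not every comparison names all 6 genes. Members left out of a comparison in the Results were not called, not past 2-fold or held too few UMIs for a ratio. Other Sox genes are named for some comparisons only, and the 3 nearest genes are given for each member at 20 CPM or more. Some genes of the lists are not reported here.

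Counts of intact cells were summed per run and population (30 sums of at least 10 cells, 366720 to 9206380 UMIs) and tested with edgeR 4.0.16 (TMM, filterByExpr, quasi-likelihood, Benjamini-Hochberg at 0.05, R 4.3.3, limma 3.58.1). Runs are the replicates. Each is a separate experiment on pooled mice, and populations of 1 run share its mice and library. By this design the runs pair the sums, and deviations of sums of the same run correlated at a median of 0.453 (3 pairs, basal with luminal) and 0.198 (118 pairs of populations). Castrated cells and explants have no replicate: they are given as CPM with exact Poisson intervals, and ratios for genes with at least 20 UMIs in both sums together. On simulated counts edgeR recovered 86% of 4-fold and 19% of 2-fold changes between basal and luminal cells over 11787 genes, and 65% and 22% in the AP RFP comparison over 11146 genes. Alternatives were DESeq2 1.42.0, other scalings and filters, run as a block, single runs left out, thinned cells, HTODemux assignment and stricter gates. Python 3.11.15, numpy 2.4.6, scipy 1.17.1, pandas 2.3.3 and matplotlib 3.10.9 were used.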

Additional observations from a re-analysis of the deposited data

Results flagged for a closer look

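The RFP difference of luminal cells differed between lobes for a pair of the 6 genes, by a test of the difference itself in edgeR. AP minus VP, the RFP+ to RFP- log2 difference was larger by 6.51 for *Sox2* and by 2.58 for *Sox9*. Both rest on VP RFP- cells of runs 2 and 3, and without run 2 the adjusted p was 0.77 for *Sox2* and 0.12 for *Sox9* (without run 3, 0.11 for *Sox2*). In the AP the RFP+ values were higher in 3 of 3 runs for both genes.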

How the results depend on the processing

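Of the SOX results by edgeR, *Sox4* between basal and luminal cells, *Sox2* and *Sox9* between AP RFP+ and RFP- luminal cells and *Sox2* between AP and VP RFP+ luminal cells were called under every alternative run, and the losses of the other calls stand beside them above. The cause of no change was tested. The direction of called *Sox12* between basal and luminal cells was reversed with total UMIs as the scale (0.043), an alternative chosen after seeing the data. All other reversals were of differences not called. With total UMIs these were 0.55 (*Sox12*, RFP+ AP against VP), 0.51 and 0.70 (*Sox2* and *Sox9*, RFP- DLP against VP) and 0.016 (*Sox2*, AP basal RFP). With the 50 most abundant genes left out they were 0.092 and 0.068 (*Sox12* and *Sox9*, VP RFP) and 0.014 (*Sox2*, AP basal RFP). With thinned cells they were -0.46 and 0.15 (*Sox2* and *Sox9*, VP RFP), 0.20 (*Sox4*, DLP against AP) and 0.15 (*Sox2*, AP basal RFP). In the VP RFP comparison *Sox12* was 0.032 without the low-count filter and 0.11 with HTODemux alone, and *Sox2* was -0.17 with the replicate block.

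Leaving out each run in turn gave, for differences that changed sign, *Sox4* -0.064 to 0.48 in the AP luminal RFP comparison, *Sox12* -0.25 to 0.29, *Sox2* -0.25 to 1.61 and *Sox9* -0.17 to 0.021 in the VP, *Sox4* -0.63 to 0.28 between DLP and AP, *Sox2* -0.69 to 1.02 between DLP and VP and -0.17 to 0.12 between the AP basal gates, and *Sox12* -0.93 to 0.17, *Sox9* -0.10 to 0.50 and *Sox4* -0.36 to 0.16 between AP and VP basal cells. The numbers of called genes then ran from 1571 to 6178 (basal against luminal), 702 to 1266 (AP luminal RFP), 0 to 43 (VP luminal RFP), 258 to 1275 (RFP- AP against VP), 781 to 1407 (RFP+ AP against VP), 17 to 118 (DLP against AP), 57 to 601 (DLP against VP), 0 to 3 (AP basal RFP), 1 to 85 (basal AP against VP) and 17 to 159 (difference of the RFP effect). Where a run left 1 value in a group, that value was assumed to vary like the other groups.

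With run as a replicate block the number of called genes was 2819 (AP luminal RFP), 124 (VP luminal RFP), 3269 (RFP+ AP against VP), 440 (DLP against AP), 1279 (DLP against VP), 62 (AP basal RFP), 372 (basal AP against VP) and 558 (difference), and among the SOX genes the block changed the call of *Sox2* between DLP and AP alone. With thinned cells the numbers were 2760 (basal against luminal), 1104 (AP luminal RFP), 17 (VP luminal RFP), 342 (RFP- AP against VP), 834 (RFP+ AP against VP), 40 (DLP against AP), 140 (DLP against VP), 12 (AP basal RFP) and 56 (difference). Without the low-count filter they were 181 (VP luminal RFP), 427 (DLP against AP), 208 (AP basal RFP), 440 (basal AP against VP) and 449 (difference). With total UMIs they were 28 (VP luminal RFP), 5213 (RFP- AP against VP), 7243 (RFP+ AP against VP), 98 (DLP against AP), 3783 (DLP against VP) and 57 (basal AP against VP). Between the AP basal gates DESeq2 called 1 gene and HTODemux assignment 2.

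In castrated against intact cells of run 2, genes past 2-fold numbered 2340 in all luminal and 1877 in VP RFP+ luminal cells with the 50 most abundant genes left out, and with thinned cells 1283 (AP RFP+ luminal), 1151 (AP RFP- luminal), 471 (DLP RFP- luminal), 2491 (VP RFP+ luminal) and 555 (VP RFP+ basal). Between *Vcan*-positive and *Vcan*-negative cells, thinning and dividing the cells again by *Vcan* gave 668, 636 and 711 at days 0, 3 and 6. Castrated and explant values have no replicate, *Sox2* in luminal RFP- cells rests on 1 to 11 UMIs a lobe, and *Sox11* and *Sox21* rest on few UMIs in adult cells.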
